A study of Mus musculus with 20 samples.

Results

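The measurement described here is the difference between tissues in the effect of 1 missing Adck2 copy: the Adck2+/- minus WT difference in skeletal muscle, less the same difference in liver, for every gene expressed in both. Genes were taken up when their probe was distinguishable from the negative-control beads (detection p under 0.05) on at least 5 of the 10 arrays of each tissue, which held for 7339 of the 16593 genes on the array. All 20 arrays of the series entered the fit. RNA of male B6N mice had been hybridised to Illumina mouse bead arrays, 5 WT liver, 5 Adck2+/- liver, 5 WT muscle and 5 Adck2+/- muscle samples. The Adck2+/- mice carried a heterozygous knockout allele introduced through C57BL/6 embryonic stem cells and chimeras, a constitutive change present in all tissues, and no treatment is given for either genotype. The labels give an age of 3 years, whereas the methods give 6 months, and the methods name an Affymetrix array although the probe names and the labelling kit are Illumina's. No source says which muscle and liver samples came from the same mouse, so the 20 arrays were treated as independent and the p-values measure the spread between these samples.

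ADCK2 is a mitochondrial member of the aarF domain-containing kinase family, whose yeast and mammalian relatives serve the synthesis of coenzyme Q, the lipid that carries electrons from complexes I and II and from fatty acid oxidation to complex III. Skeletal muscle draws on fatty acid oxidation for contraction, while liver both oxidises and makes fatty acids and is the main site of cholesterol synthesis. A difference in effect between the tissues can arise because a gene moves in one tissue alone or because it moves in opposite directions, so both tissue effects are given beside each difference.

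The transcript of Adck2 itself could not check the genotypes, since its 1 probe rose above background on just 3 of the 10 liver and 3 of the 10 muscle arrays and so was not tested. The tissues matched their labels: all 14 muscle fibre markers were detected on at least 5 muscle arrays, against 4 of 14 in liver, where Acta1, Ckm, Ckmt2, Mb, Myh4 and Tnnt3 were detected on no array. Of 18 hepatocyte markers, 16 were detected in liver and 13 also on at least 5 muscle arrays, but Alb and Tat on none of the latter. Fgb was detected on no array of either tissue. The mean log2 signal of the 18 was 12.94 to 13.11 on the liver arrays and 5.40 to 9.11 on the muscle arrays. Between 11626 and 12604 probes were detected per array. Within a group the median SD of a gene was 0.27 on the log2 scale, the median standard error of a difference between tissues was 0.23, and a 95% interval at that error reached 0.49 to each side. The first principal component, with 89.8% of the variance, separated the tissues. On the second, liver WT 3, liver Adck2+/- 1 and liver Adck2+/- 4 stood apart from the other liver arrays, and on the third, muscle Adck2+/- 1, 2 and 3 stood apart from muscle Adck2+/- 4 and 5. In such bulk samples, fewer cells of a type and less RNA per cell cannot be told apart.

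Of the 7339 genes, 3 differed between tissues in their genotype effect at a Benjamini-Hochberg adjusted p under 0.05 from limma, 0.0409% of those tested. The effect was higher in muscle than in liver for Vcpip1 (1 gene, 0.0136%) and lower for Mvd and Tal1 (2 genes, 0.0273%). The adjusted p from limma was 0.0329 in all 3. Tal1 met the detection filter in liver only through the Adck2+/- arrays, where it is high, so its call is given as a description. Where a count of genes is given as higher or lower, it refers to the genotype effect in muscle against that in liver, not to the level, unless the genotypes of a single tissue are named. In each of the 3 the effects in muscle and liver had opposite signs. For comparison, the same fit called 279 genes between genotypes in muscle (3.8%) and 1 gene, Mvd, in liver (0.0136%). None of the 3 was called in every alternative processing of the data: Vcpip1 was called in 19 of 35, Mvd in 18 of 36 and Tal1 in 13 of 29 in which it was tested, with no change of direction in any.

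Vcpip1 encodes a deubiquitinase that works with the ATPase p97/VCP in the reassembly of the Golgi after mitosis. Its log2 signals were 6.18, 6.30, 6.89, 6.62 and 6.16 on the WT liver arrays (numbers 1 to 5) and 5.53, 5.92, 5.52, 5.52 and 5.31 on the Adck2+/- liver arrays. In muscle they were 5.73, 5.47, 5.03, 5.78 and 5.65 in WT and 6.10, 6.11, 6.08, 5.99 and 5.86 in Adck2+/- mice. The genotypes therefore did not overlap in either tissue, with Adck2+/- low in liver and high in muscle. The effect was -0.87 in liver (adjusted p = 0.0686 from limma) and 0.50 in muscle (adjusted p = 0.0718), neither called by itself. Their difference was 1.37 (standard error 0.22, 95% interval 0.90 to 1.83), but the signals were dim, and in either tissue 1 of the 10 arrays did not detect the probe.

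Mvd encodes mevalonate diphosphate decarboxylase, which makes isopentenyl diphosphate for cholesterol synthesis. In liver its log2 signals were 8.71, 8.49, 8.58, 8.82 and 9.46 in WT and 10.25, 9.78, 10.32, 10.14 and 9.65 in Adck2+/- mice. In muscle they were 6.42, 6.44, 6.33, 6.31 and 6.99 in WT and 6.40, 5.60, 5.91, 6.02 and 6.49 in Adck2+/- mice. All Adck2+/- liver arrays lay above all WT liver arrays, whereas the muscle groups overlapped, with WT 5 apart from the other WT muscle arrays. Mvd rose by 1.22 in liver (adjusted p = 0.0393 from limma), its muscle effect was -0.41 (adjusted p = 0.247), and the difference was -1.63 (standard error 0.28, 95% interval -2.22 to -1.04). The liver call rests on a spread shared with muscle: in a fit of the 10 liver arrays alone the adjusted p of Mvd was 0.401.

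Tal1 encodes a basic helix-loop-helix transcription factor of blood and endothelial cells. In liver its log2 signals were 4.79, 4.74, 5.15, 5.14 and 5.00 in WT and 5.48, 5.43, 5.59, 5.44 and 5.61 in Adck2+/- mice. In muscle they were 5.73, 5.91, 5.71, 6.0 and 5.97 in WT and 5.75, 5.46, 5.46, 4.98 and 5.17 in Adck2+/- mice. The liver groups did not overlap and the muscle groups overlapped only through Adck2+/- 1. Tal1 fell in muscle by 0.50 (adjusted p = 0.0415 from limma, 0.0932 with the muscle arrays fitted alone) and its liver effect was 0.55 (adjusted p = 0.265), for a difference of -1.05 (standard error 0.19, 95% interval -1.43 to -0.66). The liver part is only a bound, because Tal1 was detected on 0 of 5 WT liver arrays: set against the lowest signal detected on each of those arrays, it was at least 1.09-fold higher in Adck2+/- liver. With that floor on every array that did not detect it, a setting chosen after seeing the data, the muscle effect was -0.38 and the difference between tissues -0.51. It was detected on 5 of 5 Adck2+/- liver, 5 of 5 WT muscle and 3 of 5 Adck2+/- muscle arrays. In liver it thus passed the filter only through the group in which it is high, and the call is no support for a liver effect. The mean levels of markers of these cells overlapped between genotypes: the mean log2 signal of 12 endothelial markers was 7.95 to 8.15 in WT liver against 8.03 to 8.25 in Adck2+/- liver, and 9.34 to 9.77 against 9.33 to 9.63 in muscle, with Kdr detected on no muscle array. The mean of 5 erythroid markers was 8.71 to 9.45 in WT and 8.84 to 9.17 in Adck2+/- liver, and 7.37 to 8.13 against 7.30 to 8.08 in muscle. Among the members, Hba-a1, a haemoglobin chain, had a muscle effect of -0.48, a liver effect of 0.48 and a difference of -0.96 (adjusted p = 0.3 from limma), Alas2 stood at 0.26 and Fech at 0.94. Their part in the Tal1 difference was not tested.

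**Figure D1:**
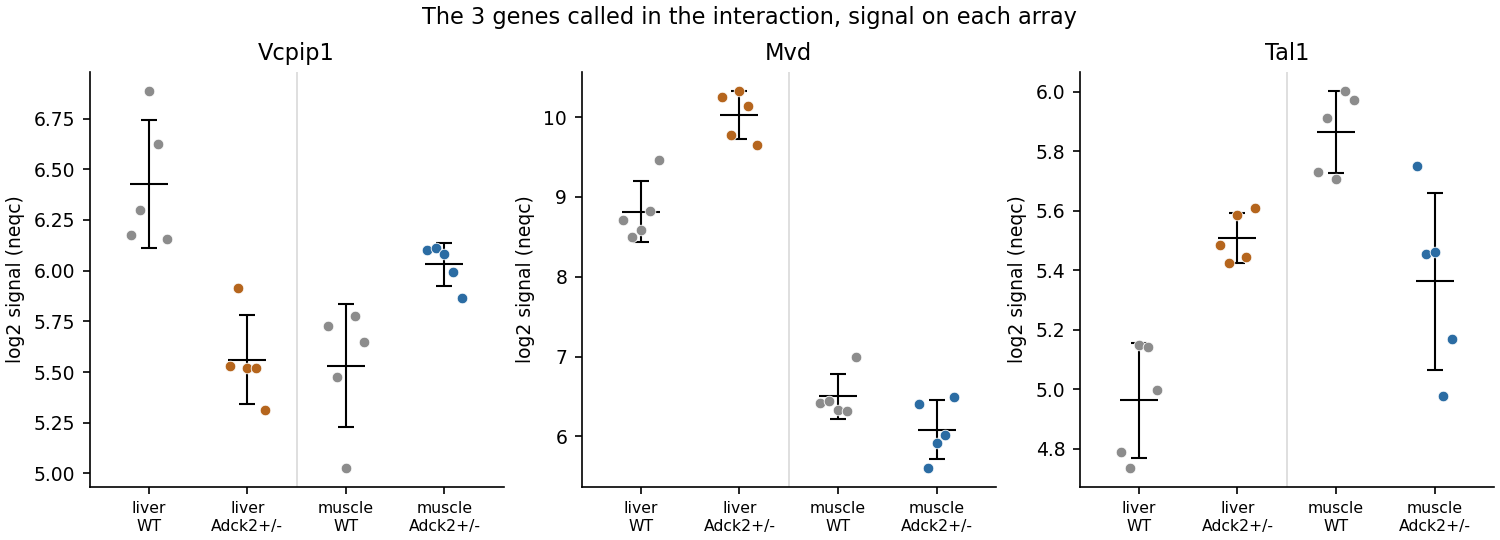
Log2 signal of Vcpip1, Mvd and Tal1 (vertical axes, each with its own range) on every array of the 4 groups (horizontal axis); points are arrays, horizontal bars means and error bars the SD of 5 arrays. Vcpip1 is low in Adck2+/- liver and high in Adck2+/- muscle without overlap, while Mvd and Tal1 are high in Adck2+/- liver and their muscle groups overlap.

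Below the threshold, the 10 genes next to Mvd and Tal1 on the lower side and the 11 next to Vcpip1 on the higher side, ranked by p, complete 12 in each direction. None of these passed (adjusted p of 0.0808 or more), and in all 24 the muscle and liver effects had opposite signs, which a large difference between them favours. Their muscle groups did not overlap in 14, against 6.16% of all genes, and their liver groups in 9, against 1.74%. Both counts come from the contrast that ranked these genes and are given as a description only. Of the 24, 16 were called in muscle, against 279 of all 7339 genes (3.8%). The ranking contrast contains the muscle effect, so this count too is a description only.

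On the higher side, Zc3h12a, an RNase that degrades cytokine mRNAs, stood in liver at 6.63, 7.05, 6.85, 6.81 and 6.51 in WT and between 6.40 and 6.47 in Adck2+/- mice, and in muscle between 5.67 and 5.93 in WT and above that, at 6.04 to 6.37, in Adck2+/- mice. Neither pair of groups overlapped, and the difference between tissues was 0.74 (95% interval 0.44 to 1.05, adjusted p = 0.0808 from limma). Arid4b, a subunit of the Sin3 histone deacetylase complex, rose in muscle by 0.92 and had a liver effect of -0.21. Hjv, the haemojuvelin co-receptor of bone morphogenetic proteins that muscle and liver use in iron control, was at 9.03, 9.07, 7.91, 8.88 and 8.66 in WT muscle and 9.70, 9.93, 9.88, 9.57 and 9.69 in Adck2+/- muscle. It rose there by 1.04 without overlap of the groups, while in liver, where it was dim, its effect was -0.01. Etfbkmt, which methylates the beta subunit of the electron transfer flavoprotein and so acts on the entry of fatty acid electrons into the respiratory chain, differed through liver instead. It was at 9.71, 9.68, 10.57, 9.91 and 9.65 in WT liver and 7.71, 8.99, 7.89, 7.99 and 9.59 in Adck2+/- liver, with no overlap but with Adck2+/- 5 close to WT. Its liver effect was -1.47 (adjusted p = 0.0686 from limma) against 0.19 in muscle. Mbnl2, a splicing regulator, and Dcun1d1, which promotes the neddylation of cullins, had small differences of 0.61 and 0.74 and no overlap in either tissue.

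On the lower side, Ehd1, an ATPase of endosomal recycling, was at 6.84, 6.90, 7.49, 7.26 and 7.76 in WT liver and 8.14, 7.78, 7.66, 8.11 and 7.73 in Adck2+/- liver. The liver groups overlapped through WT 5, whereas in muscle the Adck2+/- arrays (5.84 to 6.57) all lay below the WT arrays (6.66 to 7.19). The difference of -1.22 did not pass (adjusted p = 0.0997 from limma). Slc9a3r1, a scaffold that ties membrane transporters to the cytoskeleton, fell in muscle by 0.66, with WT arrays from 6.08 to 6.48 and Adck2+/- arrays from 5.58 to 5.79, and had a liver effect of 0.01. Ptgds, which makes prostaglandin D2, had a muscle effect of -1.27 as fitted (adjusted p = 0.0353 from limma, 0.0703 with the muscle arrays fitted alone), where its WT arrays read 6.89, 5.02, 6.91, 6.75 and 6.21 and its Adck2+/- arrays 5.15, 5.27, 4.80, 5.29 and 4.92. WT 2 lay inside the Adck2+/- range, and only 1 of 5 Adck2+/- and 4 of 5 WT muscle arrays detected the gene. With undetected arrays at the lowest signal detected there, the effect was -1.06. Mt2, a metallothionein that binds zinc, was detected on 0 of 5 Adck2+/- muscle arrays. In muscle it thus passed the filter only through the WT arrays, where it is high. Its muscle effect, at least 1.17-fold lower, is a bound and a description only. Its difference between tissues was -0.91 as fitted and -0.42 with that floor on every array that did not detect it. G3bp1, a core protein of stress granules, had a difference of -0.93 on its brightest probe and 0.76 on its other probe, so the probes disagreed in direction.

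Genes whose groups separated in both tissues were few. There were 5 that moved in opposite directions (0.0681% of all tested), Vcpip1, Zc3h12a, Mbnl2, Dcun1d1 and Zfp213, and 2 in the same direction (0.0273%), Supt4a and Mkrn2. Zfp213, Supt4a and Mkrn2 fall outside the rule for named genes and were chosen after their values were seen. Zfp213, a zinc finger protein, was lower in muscle and higher in liver, with a difference of -0.75. Supt4a, a subunit of the transcription elongation factor DSIF, was lower in Adck2+/- mice in both tissues and had a difference of -0.34, and Mkrn2, a RING finger protein, was higher in both with a difference of -0.09.

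Over all 7339 genes, the effects in the tissues bore little relation to each other. Their correlation across genes was 0.05 by Pearson and 0.05 by Spearman, a description over genes of the same 20 arrays, which are not independent replicates. The effects had opposite signs in 3525 genes (48%). The muscle effect was the larger in size in 4569 genes (62.3%), and its SD over genes was 0.31, against 0.21 in liver. Muscle effects were below 0 in 52.4% of genes, liver effects in 47.1%, and differences between tissues in 54.7%.

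At an unadjusted p under 0.05, 1088 genes differed between tissues (14.8%). Of these, 359 were higher in muscle (4.89%) and 729 lower (9.93%), which none but Vcpip1, Mvd and Tal1 kept after adjustment. The 359 had a median effect of 0.28 in muscle and -0.26 in liver, so both tissues contributed to similar extents. The 729 had a median effect of -0.49 in muscle and 0.13 in liver. Among the 1088, the muscle effect was the larger in 800 (73.5%) and the signs were opposite in 909 (83.5%), shares that selection on the difference itself raises. The lower side held 67% of the 1088 here, 62.5 to 66.3% when the background, offset or source of values was changed or each tissue was normalized alone, and 94.6% (1079 of 1141) when arrays were scaled to one median, a setting that moved the median difference of all genes from -0.03 to -0.23.

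**Figure D2:**
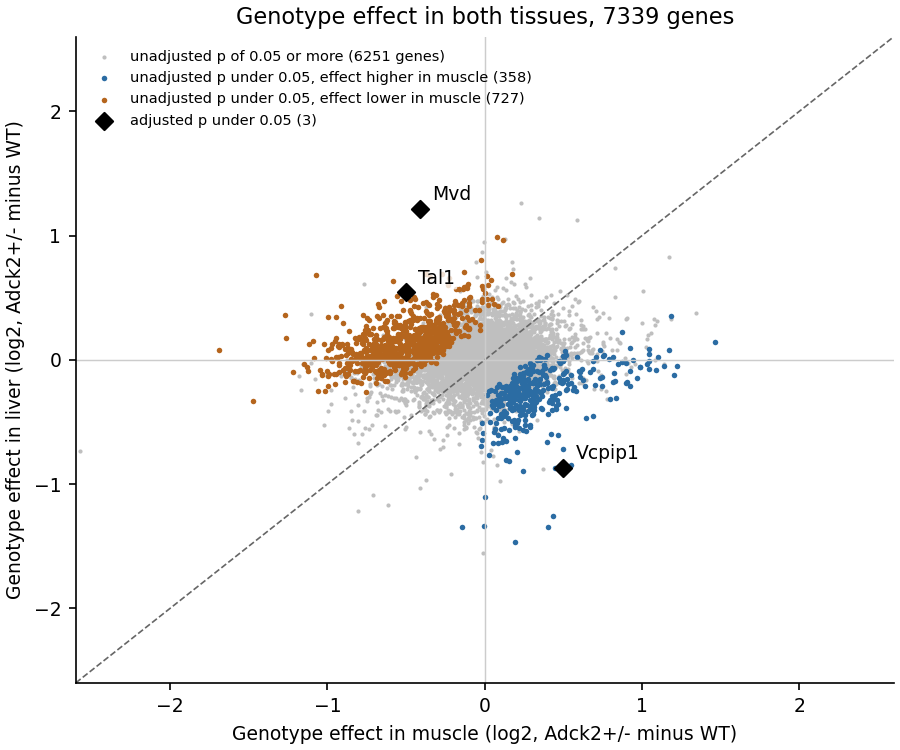
Genotype effect in muscle (horizontal axis) against that in liver (vertical axis), both as log2 Adck2+/- minus WT, for 7339 genes; the dashed line marks equal effects, colours mark genes at an unadjusted p under 0.05 and diamonds the 3 genes at an adjusted p under 0.05. The cloud is wider along the muscle axis (SD 0.31 against 0.21) and Vcpip1, Mvd and Tal1 lie in the quadrants of opposite sign.

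A gene called in muscle was seldom shown to differ from liver. The same fit called 50 genes higher (0.681%) and 229 lower (3.12%) in Adck2+/- muscle, and of these 279 only Tal1 was also called in the difference between tissues. At an unadjusted p under 0.05, 238 of the 279 differed from liver (85.3%), against 14.8% of all genes. Their median effect was -0.65 in muscle and 0.00 in liver, and 140 of the 279 had the same sign in both tissues. The comparison uses the same muscle arrays on both sides. The muscle calls themselves depended on the spread taken from liver: with the 10 muscle arrays fitted alone, an alternative chosen after seeing the data, 63 genes were higher and 35 lower, and 52 of these 98 were among the 279.

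The enzymes of the cholesterol pathway and their regulator SREBP2 (encoded by Srebf2) are induced together when cell sterols fall. As the lists were drawn up, Vcpip1 and Tal1 were in none, the deubiquitinase list included. For that reason only the cholesterol list held a member called in the difference between tissues. Of 18 tested, 1 was called (Mvd), 5 were lower in muscle than in liver at an unadjusted p under 0.05 (27.8%, against 9.93% of all genes) and none higher, and 14 lay below 0 (77.8%, against 54.7%). The median difference was -0.22, against -0.03 over all genes, with a median effect of 0.20 in liver, where 15 of the 18 lay above 0, and -0.07 in muscle. Since Mvd and Srebf2 are genes that the study named from these samples, they are not independent evidence of a direction.

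Srebf2 read 8.19, 7.86, 8.03, 8.04 and 8.20 in WT liver and 8.48, 8.71, 8.69, 8.68 and 8.41 in Adck2+/- liver. In muscle it read 5.81, 6.22, 6.93, 6.11 and 6.11 in WT and 5.66, 5.68, 6.04, 6.16 and 6.0 in Adck2+/- mice. The liver groups were separate, with Adck2+/- high, and the muscle groups overlapped. The difference of -0.86 did not pass (adjusted p = 0.147 from limma). Pmvk, the kinase one step before Mvd, had a difference of -1.09 (adjusted p = 0.26), and here muscle was the tissue without overlap, with WT arrays from 7.15 to 7.61 and Adck2+/- arrays from 6.43 to 7.11. Sc5d, a desaturase of the last steps, had a difference of -0.66 and Fdps, which makes farnesyl diphosphate, one of -0.58. Nsdhl, which removes methyl groups from lanosterol products, went the other way at 0.68, and Insig1, which holds SREBP in the endoplasmic reticulum, stood at 0.25. On the arrays, the mean of the 18 genes was lowest in liver WT 3 (-0.48 from the liver mean), one of the arrays that stood apart, and the Adck2+/- liver arrays split into 0.29, 0.47 and 0.15 for numbers 2, 3 and 5 and -0.17 and -0.13 for numbers 1 and 4.

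The promoters of this list are shown because its members are known to be induced together. The windows cover the 250 bases upstream of each start site in RefSeq on GRCm38.p6, from the furthest base to the base before the start, and capitals mark CCAAT boxes on either strand (CCAAT, or ATTGG where the other strand holds it).
Mvd, chr8:122443423-122443672, minus strand: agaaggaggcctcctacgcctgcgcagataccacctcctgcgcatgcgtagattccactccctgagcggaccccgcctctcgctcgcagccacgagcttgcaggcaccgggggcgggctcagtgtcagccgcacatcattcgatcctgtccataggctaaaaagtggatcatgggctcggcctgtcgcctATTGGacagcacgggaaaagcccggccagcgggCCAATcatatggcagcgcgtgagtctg
Srebf2, chr15:82147019-82147268, plus strand: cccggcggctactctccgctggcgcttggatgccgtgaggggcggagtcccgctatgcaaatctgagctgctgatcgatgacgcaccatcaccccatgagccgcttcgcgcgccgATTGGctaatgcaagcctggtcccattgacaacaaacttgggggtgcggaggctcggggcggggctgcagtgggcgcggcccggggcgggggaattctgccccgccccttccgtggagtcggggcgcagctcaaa
Of the 18 genes, 15 had a window, and all 15 (100%) held a CCAAT box on either strand, against 41.2% of 6040 tested genes with a window and 37.5% of 27025 genes in all. The sterol regulatory element in the form TCACNCCAC was found in 1 of the 15 (6.67%), that of Hmgcs1, against 1.18% of the tested genes. Neither Mvd nor Srebf2 held it in these letters, which says nothing about the factor.

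Fatty acid and triglyceride synthesis had no called member. Of 20 genes, 1 was lower and 1 higher at an unadjusted p under 0.05 (5% each, against 9.93% and 4.89% of all genes) and 14 lay below 0. The median difference was -0.26, and the median effect was 0.20 in liver, where 18 lay above 0, and 0.02 in muscle. Fasn, the fatty acid synthase, read 7.21, 7.53, 6.05, 7.68 and 7.93 in WT liver and 8.07, 8.28, 8.56, 8.36 and 8.0 in Adck2+/- liver, with no overlap. In muscle Adck2+/- 5 read 7.07, while the other Adck2+/- arrays read 5.09 to 6.02 and WT 5.14 to 6.11, and the difference was -0.84 (adjusted p = 0.423 from limma), or -0.54 without liver WT 3. Srebf1, the regulator of these genes, had a difference of -1.04 (adjusted p = 0.195) and Elovl6, which elongates palmitate, one of -1.38. Without muscle Adck2+/- 5, Elovl6 stood at -2.16 and was called (adjusted p = 0.0392). The list mean on muscle Adck2+/- 5 was 1.03 above the muscle mean and on muscle WT 2 was 0.59 below it, and the mean of 11 adipocyte markers in muscle spanned 6.62 to 7.95 for WT, 7.07 to 8.92 for Adck2+/-, with Fabp4 detected on none. Without muscle Adck2+/- 5 the median difference was -0.56, and without muscle WT 1 and WT 2 in turn -0.15 and -0.46. With muscle WT 2 and muscle Adck2+/- 5 left out together it was -0.93. The part of fat tissue in the samples was not tested.

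Among 57 cytosolic ribosomal proteins, which build the ribosome of the cytoplasm, 25 were lower in muscle than in liver at an unadjusted p under 0.05 (43.9%, against 9.93% of all genes) and none higher (against 4.89%). There were 51 below 0 (89.5%, against 54.7%), and none passed adjustment. The median was -0.51, from -0.56 in muscle and -0.01 in liver, or -0.34 without muscle Adck2+/- 2. Rps26, of the small subunit near the exit of the mRNA channel, read 12.93, 12.16, 13.18, 12.76 and 12.50 in WT muscle and 11.40, 10.77, 10.88, 12.18 and 12.55 in Adck2+/- muscle, against 12.90 to 13.47 in WT liver and 12.87 to 13.22 in Adck2+/- liver. Adck2+/- 1, 2 and 3 were low in muscle, Adck2+/- 4 and 5 overlapped WT, and the liver groups overlapped throughout. The difference was -1.11 (standard error 0.38, adjusted p = 0.229 from limma). Rpl34 of the large subunit followed the same arrays, with 11.44, 10.77, 10.97, 12.08 and 12.57 in Adck2+/- muscle and a difference of -1.07. At the other end, Rpl7a stood at 0.41 and Rps15a at 0.30.

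The counts for the mitochondrial assemblies at an unadjusted p under 0.05 are also to be read against 9.93% of all genes lower and 4.89% higher. Of 68 mitochondrial ribosomal proteins, 22 were lower (32.4%) and none higher, with a median of -0.27, and Mrpl52 stood lowest at -1.08. Of 37 genes of complex I and its assembly, 10 were lower (27%) and 1 higher, with a median of -0.27. Ndufa3 and Ndufa2, accessory subunits, had differences of -1.11 and -0.99, whereas the assembly factors Ndufaf7 and Ndufaf1 stood at 0.36 and 0.32. ATP synthase had a median of -0.45, with 6 of 17 lower (35.3%) and 1 higher. Its subunit alpha, Atp5a1, stood at 0.58. Complex IV had a median of -0.19 (3 of 17 lower and 1 higher), which moved with single arrays: without muscle Adck2+/- 5 it was -0.39, as it then was for complex I, and without liver Adck2+/- 1 or 5 it was -0.30. Complexes II and III had a median of 0.02 (2 of 12 each way). Romo1, a small inner-membrane protein that bears on reactive oxygen species, had a difference of -0.91 and read 9.60, 9.16, 9.05, 10.38 and 10.99 in Adck2+/- muscle, with numbers 1 to 3 low as in Rps26.

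Outside the mitochondrion, 6 of 19 small nuclear and Sm ribonucleoproteins of the spliceosome were lower (31.6%, against 9.93% of all genes) and none higher, with a median of -0.48. Of 17 RNA polymerase subunits, 7 were lower (41.2%) and none higher, with a median of -0.28, or -0.17 without muscle Adck2+/- 2. Polr2i, a subunit of RNA polymerase II, had a difference of -1.25 and read 8.87, 8.31, 8.44, 9.62 and 10.13 in Adck2+/- muscle, again with numbers 1 to 3 low. The median was 0.01 in 80 splicing factors and helicases, 0.09 in 51 translation factors and -0.10 in 42 proteasome subunits.

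On the arrays, the mean of the 57 cytosolic ribosomal proteins was 0.36, 0.04, 0.38, 0.26 and 0.18 above the muscle mean in WT and -0.32, -0.75, -0.52, 0.08 and 0.29 from it in Adck2+/- mice. The mean of the complex I genes was -0.18, -0.58, -0.45, 0.06 and 0.24 in Adck2+/- muscle. These are the arrays that parted on the third principal component. The median SD of the 57 genes within a genotype was 0.40 in muscle and 0.20 in liver, and of the 9 called lower in muscle in the joint fit, 0 were called with the muscle arrays fitted alone. Short genes moved with these lists. Genes were split into 5 bins of equal size by genomic span in RefSeq. In the bin of the shortest genes (1463 genes, 383 to 7495 bp), the median difference was -0.17. At an unadjusted p under 0.05, 32 of them were higher and 273 lower, against 359 (4.89%) and 729 (9.93%) of all 7339 genes. In the bin of the longest (1463 genes, 58161 to 2270506 bp) the median difference was 0.00, with 97 higher and 101 lower. The part of gene span in the list differences was not tested.

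**Figure D3:**
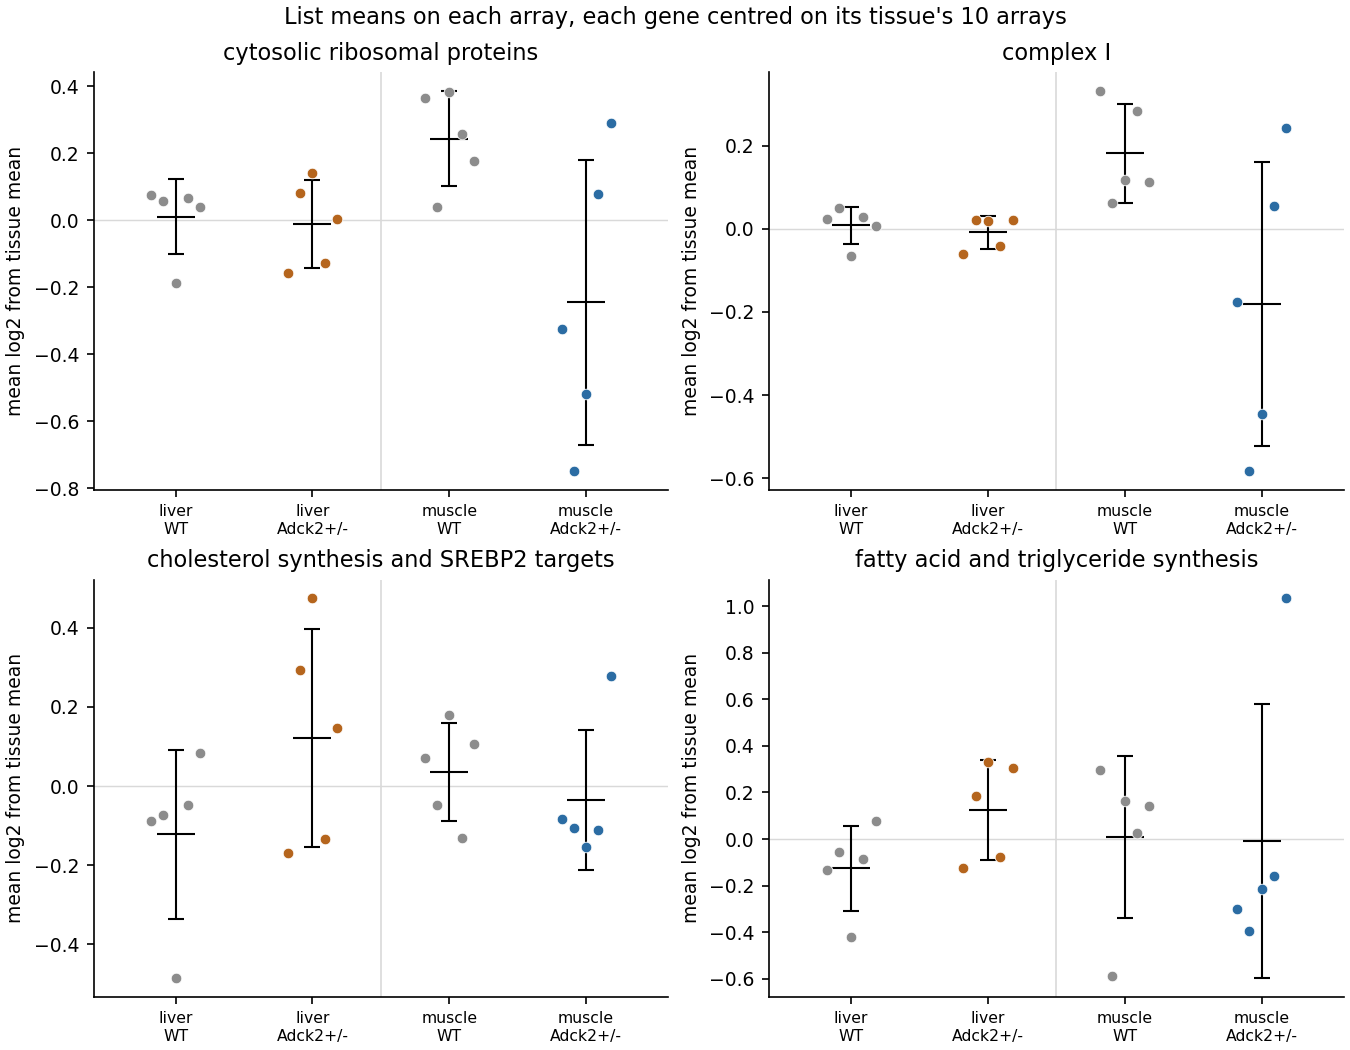
Mean log2 signal of 4 gene lists on every array (vertical axis, each gene taken as its deviation from the mean of the 10 arrays of its tissue) by group (horizontal axis); points are arrays, horizontal bars means and error bars the SD of 5 arrays. Muscle Adck2+/- 1, 2 and 3 lie low for ribosomal proteins (-0.32, -0.75 and -0.52) and numbers 4 and 5 overlap WT, while muscle Adck2+/- 5 lies at 1.03 for fatty acid and triglyceride synthesis.

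Collagens and extracellular matrix proteins were lower in muscle at an unadjusted p under 0.05 in 12 of 32 genes (37.5%, against 9.93% of all genes) and higher in none, with a median of -0.30. Col1a1, the main fibrillar collagen, read 9.66, 8.73, 8.59, 9.45 and 8.76 in WT muscle and 8.67, 8.74, 7.03, 7.67 and 7.51 in Adck2+/- muscle, with overlap through numbers 1 and 2. It was detected on 5 of 10 liver arrays, and its difference was -1.24 (adjusted p = 0.234 from limma). Lgals1, a galectin of muscle and matrix, stood at -1.15. Isg15, an interferon-induced ubiquitin-like modifier, fell in muscle by 0.91, its liver effect was 0.12 and its difference -1.02 (adjusted p = 0.131), but the list of 32 interferon and antigen presentation genes had a median of -0.10 (-0.16 to -0.04 with 1 array left out).

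With arrays scaled to one median, 25 of the 47 list medians changed sign as the median of all genes moved, and relative to that median 1 did, so the medians here are to be read against -0.03. Of 19 genes of mitochondrial beta-oxidation, 15 were above 0, with a median difference of 0.23. At an unadjusted p under 0.05, 2 were higher (10.5%, against 4.89% of all genes) and 1 lower (5.26%, against 9.93%). The list mean on muscle WT 3 was -0.66 from the muscle mean, against -0.15 to 0.06 on the other WT arrays, and without that array the median difference was 0.16. Acadl, the long-chain acyl-CoA dehydrogenase, stood at 1.17 on its brightest probe, 0.36 and 0.53 on its other probes and 0.70 without muscle WT 3. Hadh, which oxidises hydroxyacyl-CoA, stood at 1.09, whereas Etfb, a subunit of the flavoprotein that takes their electrons, stood at -0.49. Peroxisomal genes had a median of 0.20 with 4 of 26 higher (15.4%) and 2 lower (7.69%). Crat, the carnitine acetyltransferase, had a difference of -0.84 (adjusted p = 0.147 from limma), but its other probes, too dim for the filter, gave 1.13 and 1.12. The tricarboxylic acid cycle had a median of 0.11, or 0.07 without muscle WT 3. Of 11 genes of coenzyme Q biosynthesis and ADCK kinases, none differed even at an unadjusted p under 0.05, with a median of 0.09 (0.02 to 0.17 with 1 array left out) and a range from -0.26 to 0.39.

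Muscle structure and stress genes went different ways within their lists. Pdlim5, a Z-disk scaffold protein, had a difference of 1.04 on its brightest probe but -0.14 where only probes detected on all arrays were kept, and Ankrd1, a stretch-responsive Z-disk protein, one of -0.99, in a list of 18 with a median of 0.27. The list mean on muscle WT 3 was -0.46 from the muscle mean, against -0.03 to 0.08 on the other WT arrays, and without it the median was 0.12. Car3, a muscle carbonic anhydrase counted here among the adipocyte markers, rose in muscle by 1.17 (adjusted p = 0.0447 from limma). It was called there with the muscle arrays alone as well. It read 12.75, 13.74, 12.77, 13.18 and 13.24 in WT and 14.21, 14.30, 14.52, 14.26 and 14.24 in Adck2+/- muscle, without overlap. Its liver arrays spanned 12.03 to 13.85 for WT and 12.55 to 13.96 for Adck2+/-, and its difference of 1.10 did not pass (adjusted p = 0.278). Chac1, which cleaves glutathione and is a target of the integrated stress response, was at 8.81, 8.70, 9.39, 8.09 and 8.44 in WT liver and 7.17, 8.17, 7.56, 7.47 and 6.78 in Adck2+/- liver, with a difference of 1.69 (adjusted p = 0.192). Ddit4, an mTORC1 inhibitor of the same list, was at -1.75, the lowest difference among the named genes, and the list's median was 0.17 (0.11 without liver WT 5, 0.27 without liver Adck2+/- 1). Cish and Socs2, which restrain growth hormone signals, stood at 1.54 and 1.33. The liver effect was larger than the muscle effect in Chac1 (-1.26), Cish (-1.55) and Socs2 (-1.33).

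Macrophage and Kupffer cell markers had a median of 0.42, with 2 of 10 genes higher (20%, against 4.89% of all genes) and none lower at an unadjusted p under 0.05. This was the highest of the lists with at least 10 tested genes with all arrays and, at 0.52, without muscle WT 3. Without muscle Adck2+/- 5 it was 0.25, below beta-oxidation (0.29) and the Z-disk list (0.27). Without liver Adck2+/- 5 it was 0.21. The effect was below 0 in liver in all 10 (median -0.26) and had a median of 0.13 in muscle. The list mean ran from -0.32 to 0.48 around the liver mean in WT and from -0.65 to 0.26 in Adck2+/- mice, so the genotypes overlapped, and Clec4f, the Kupffer cell lectin, was detected on no muscle array. Cd14, the co-receptor for lipopolysaccharide, had a difference of 1.11 (adjusted p = 0.229 from limma). It was tested in 29 of the 36 alternatives. Without muscle WT 2 and Adck2+/- 5 the list median was 0.14. Hepatocyte markers had a median of -0.45 with none at an unadjusted p under 0.05, a median that ranged from -1.55 without muscle Adck2+/- 4 to -0.11 without muscle Adck2+/- 1, and their mean in muscle spanned 5.40 to 7.92 for WT and 5.40 to 9.11 for Adck2+/-.

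**Figure D4:**
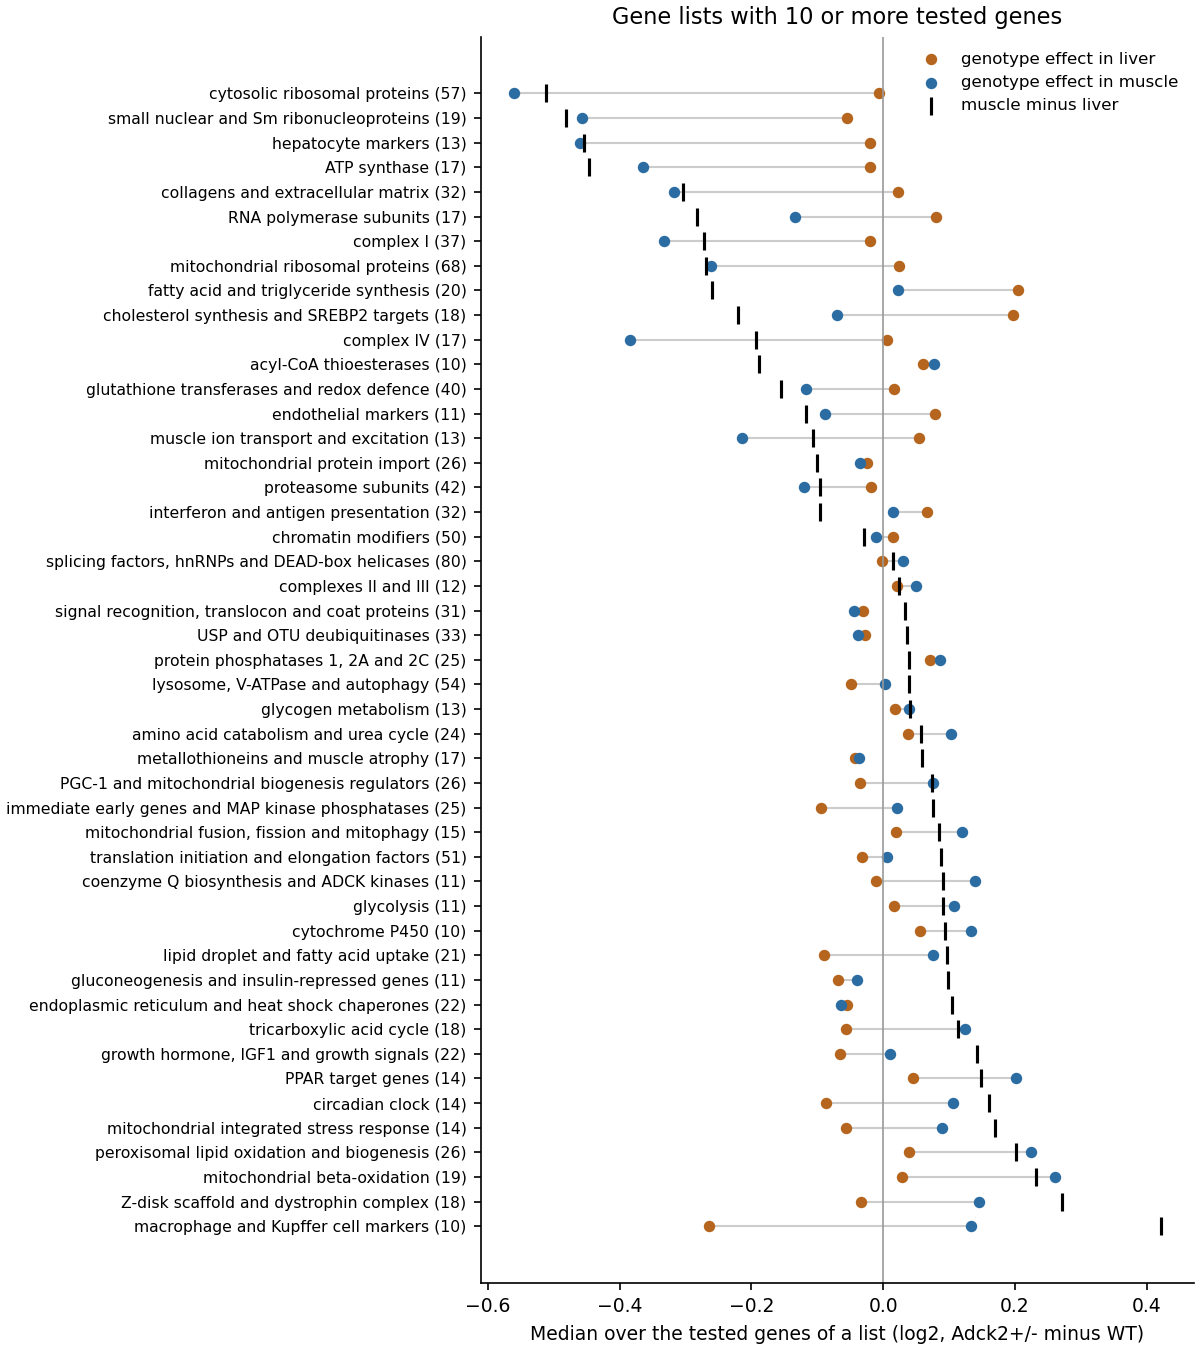
Median genotype effect in liver and in muscle (dots) and median difference between tissues (bars) on the log2 scale (horizontal axis) for the 47 gene lists with at least 10 tested genes (vertical axis, number tested in parentheses). Ribosomal proteins lie lowest at -0.51 through muscle, cholesterol synthesis at -0.22 mostly through liver, and macrophage markers at 0.42, a highest place they lose without muscle Adck2+/- 5 (0.25).

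The genes that the study itself names were looked up as well. Of 40, 32 were tested, and Adck2, Myot, Acot3, Acot4, Cdx4, Mia2, Phlda2 and Slc2a2 were not. Mvd was called, and at an unadjusted p under 0.05 another 10 were lower and 4 higher in muscle than in liver. The higher ones were Pdlim5, Car3, Gpcpd1 (0.82), a phosphodiesterase of choline phospholipids, and Fbxo32 (0.67), the ubiquitin ligase of muscle atrophy. The study chose these genes on the same samples, so the counts are not independent evidence.

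The number of genes called turned on single arrays. With each array left out in turn, between 0 and 129 genes were called, and the most without muscle Adck2+/- 5. The count by limma was 0 in 7 of the 20 cases, without liver WT 2, liver Adck2+/- 1, 3 or 4, muscle WT 5, or muscle Adck2+/- 2 or 3, where 820 to 1043 genes stood at an unadjusted p under 0.05. With muscle WT 2 left out as well, 280 genes were called, 45 higher and 235 lower, including Vcpip1, Mvd and Tal1. Of the 280, 279 had the same sign with all arrays. The remaining arrays enter both fits, so the shared sign is a description only. Those called lower included 18 of 57 cytosolic ribosomal proteins and 9 of 37 complex I genes, against 235 of all 7210 genes tested. The medians of these lists were then -0.70 and -0.41. Other lists varied. Called lower were 6 of 19 small nuclear and Sm ribonucleoproteins, 5 of 17 complex IV genes and 8 of 68 mitochondrial ribosomal proteins. So were 4 of 20 genes of fatty acid and triglyceride synthesis. At the other end stood 1 lower and 1 higher of 80 splicing factors and helicases and 0 of 19 beta-oxidation genes. Without liver WT 3, Adck2+/- 1 and Adck2+/- 4, 0 genes were called among 7115 by limma, with 1005 at an unadjusted p under 0.05.

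**Figure D5:**
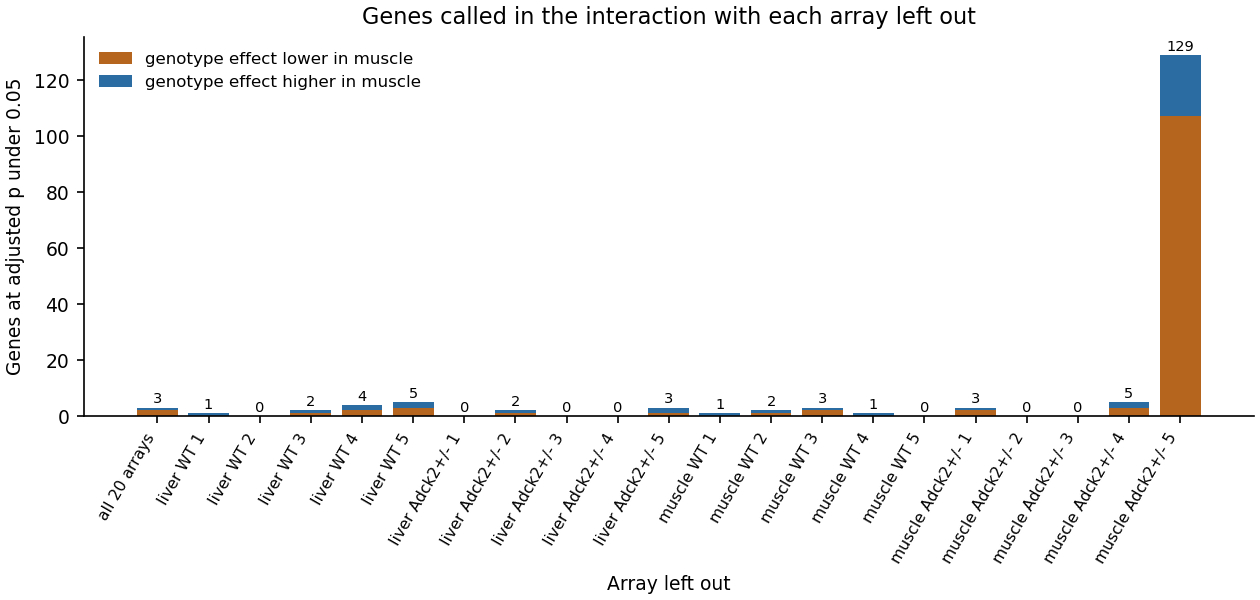
Number of genes at an adjusted p under 0.05 for the difference between tissues (vertical axis, stacked by direction) with all 20 arrays and with each array left out in turn (horizontal axis). The bar with all arrays stands at 3, that without muscle Adck2+/- 5 at 129, and 7 bars are at 0.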

How the data were processed

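The intensity values that the authors deposited are linear mean signals of the probes, with no normalization across arrays. Each has a detection p-value beside it, per the file headers. How the background was treated is not given in the sources used here. The deposited value table, which differed from these signals in 2165 rows, served only as an alternative. Of 25697 probes, 23978 carry 1 gene symbol, 23962 of them matched by gene ID to RefSeq.

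Signals of all 20 arrays were background-corrected, quantile normalized and log2 transformed together with neqc (offset 16) in limma 3.58.1 under R 4.3.3. Probes whose detection p lay under 0.05 in 5 or more of the 10 arrays of each tissue were kept (10308), and the brightest stood for its gene. A linear model of the 4 groups with empirical Bayes (lmFit, eBayes) gave both tissue effects and their difference. Two-sided p-values received a Benjamini-Hochberg adjustment over 7339 genes, and genes under 0.05 were called. Named are the 12 genes per direction (called, then smallest p), per list its called members and then the largest differences until 2 are named, and genes the study names. The 53 lists and the members were chosen with earlier results of these data known. Other list members are given as the ends of a list.

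In a test on simulated arrays of this size and spread, 10, 52, 82 and 98% of genes with a true difference of 0.5, 1, 1.5 and 2 were called, with 14 false calls among 7139 unchanged genes. The simulated noise was independent between genes, whereas on these arrays whole lists moved together. The shares therefore hold for the simulated setting only. The planned description by protein length was not run, and genomic span replaced it. Alternatives changed the background, scaling, filter, probe, model, threshold and arrays. Equal replicate numbers did not deviate together in every pair. Correlations ran from -0.58 to 0.31 between genotypes in liver and from -0.11 to 0.18 between the tissues of a genotype. No pairing was used, and these values cannot say which samples shared a mouse. Figures were drawn with matplotlib 3.10.9 under Python 3.11.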

Additional observations from a re-analysis of the deposited data

Results flagged for a closer look

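The genotype effect differed between muscle and liver by a test of the difference itself in 3 genes, Mvd (-1.63), Tal1 (-1.05) and Vcpip1 (1.37), all on the log2 scale. The value of Tal1 is as fitted and only a bound in liver, where the Adck2+/- arrays alone detected it.

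Among the 24 genes with the largest differences, 1 array lay far from the other 4 of its group in 6 of 96 groups, and chance gives about 1 in 20. Arid4b read 6.39 on muscle Adck2+/- 4, against 6.76 to 6.84 on the other arrays. Carnmt1, a carnosine methyltransferase, read 10.7 on muscle WT 3, against 11 to 11.1. Dcun1d1 read 9.96 on liver WT 1, against 9.64 to 9.71, and Etfbkmt 10.6 on liver WT 3, against 9.65 to 9.91. Mvd read 6.99 on muscle WT 5, against 6.31 to 6.44, and G3bp1 10.5 on muscle WT 2, against 10.9 to 11.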

How the results depend on the processing

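The 3 calls were changed by most settings. With median scaling or an offset of 50, 1 gene was called (0 higher, 1 lower), and without background correction or with the deposited value table, the lower calls numbered 1. Averaging probes gave 2 higher. Without a detection filter 14 genes were called (7 and 7), and with array weights 35 (17 and 18). Detection on all arrays, trend and robust options, every probe by itself, the fixed mouse block and the methods' t-test gave 0 calls by limma or that test (956, 1082, 1389, 1013 and 740 at an unadjusted p under 0.05). With the replicate number as a block, 0 were called (lowest adjusted p 0.0611, 992 unadjusted), and equal numbers did not correlate in every pair. The random mouse block kept 3. At an adjusted p under 0.1, 6 were called (3 higher), and unadjusted 1088 (359 and 729). Leaving out 1 array gave 0 to 129 calls (0 to 22 higher, 0 to 107 lower), without the 3 liver arrays 0 and without the 2 muscle arrays 280 (45 and 235). The 279 muscle calls became 436 without background correction, 429 from the value table, 769 with weights, 6 with the replicate block, 584 without the 3 liver arrays, 684 without the 2 muscle arrays and 98 with muscle alone, and 2 to 664 with 1 array left out. The lower share of muscle calls, 82.1%, was 35 of 98 with muscle alone. The named genes kept direction and call in 4816 of their recomputed values, 120 gained and 50 lost a call, and 17 reversed. Reversed were Cyp2e1 (-0.036 with array weights, -0.38 without the 2 muscle arrays, -0.074 to 0.94 with 1 array left out), Pdlim5 (-0.14, detected on all arrays), Psmd5 (-0.045, value table), Lipe (-0.020 without the 3 liver arrays, -0.25 to 0.91 with 1 array left out), Pgpep1 (0.016 without the 3 liver arrays), Apoa2 (-1.61 to 0.0014 with 1 array left out) and Trf (-0.17 without the 2 muscle arrays). Relative to all genes, 1 of 47 list medians (chromatin modifiers) changed sign under median scaling. The causes were not tested. The number of arrays limits the precision, and genes near background give bounds only.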
